A study of Homo sapiens with 8 samples.

Results

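The 30 genes described here encode enzymes that make nucleotides, the building blocks of RNA and DNA, together with the subunits of ribonucleotide reductase. A gene was represented by the probe set annotated to its symbol alone, and where it had several, by the one with the highest mean over all arrays. Of the 30 genes, 29 had such a probe set, among 19774 genes in all, and the expression of ADSS2 was not analysed here. All 29 reached the level required for testing, as did 14517 genes in all. Expression was measured in total RNA from 4 human neuroblastoma lines on 8 Affymetrix arrays, 1 per line and treatment, so no line has a replicate of either treatment. The 2 treatments, each of 48 h, were vehicle and 2.5 µM ciclopirox, which is used against fungi and binds iron. SKNAS is labelled a c-Myc line, and NB1691 and SKNBE2 are labelled N-Myc lines. SKNAS/shHIF1a is a stable knockdown line made from SKNAS with a short hairpin against HIF1A, whose protein is a hypoxia-inducible transcription factor subunit, and is labelled N-Myc. The labels name a single knockdown line and no hairpin control line, and both arrays of this line carry the knockdown. Nothing in the labels says that the 2 arrays of a line came from separate experiments, so p-values measure the spread between these samples. SKNAS and its derivative are not independent lines, and fits that count both may understate the spread between lines.

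Purines are built step by step on a ribose phosphate that PRPS enzymes supply, and pyrimidines are built as a ring that is joined to the same ribose phosphate later. Ribonucleotide reductase turns ribonucleotides into deoxynucleotides. Its large subunit is RRM1, and its small subunit, RRM2 or the p53-inducible RRM2B, holds an iron centre that the reaction needs. MYC and MYCN are known to drive many of the synthesis genes, and the deoxynucleotide genes are known to follow the S phase of the cell cycle.

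Values are log2 signals, so a difference of 1 is a 2-fold change, and levels were compared between arrays and not between genes. Array medians lay between 3.47 and 3.52. HIF1A, the knockdown target, had vehicle levels of 12.25 in SKNAS, 12.05 in NB1691, 12.01 in SKNBE2 and 11.71 in SKNAS/shHIF1a, and ciclopirox levels of 11.94, 12.12, 11.88 and 11.09. It was thus lowest in the knockdown line under both treatments. MYCN had levels of at least 11.77 in NB1691 and SKNBE2, of 5.41 and 5.65 in SKNAS/shHIF1a and of 2.77 and 3.36 in SKNAS. MYC stood at 9.86 and 9.23 in SKNAS/shHIF1a and at 10.16 and 9.10 in SKNAS. These levels of SKNAS/shHIF1a went against its N-Myc label, although its MYCN lay above that of SKNAS. Lines were grouped by origin. The 12 noradrenergic neuroblastoma markers on the array averaged between 9.62 and 10.19 on the arrays of NB1691 and SKNBE2, and between 6.74 and 7.78 on those of SKNAS and its derivative, where the 11 mesenchymal markers averaged between 8.76 and 10.10, against 5.83 to 6.48 in NB1691 and SKNBE2. PTPRC, a leukocyte gene, read 11.53 and 10.42 in SKNAS, 9.57 and 6.34 in its derivative and at most 3.29 in the other 2 lines, while the lymphoid markers CD3D, CD3E and MS4A1 read at most 3.49 on any array. Of the myeloid markers, CD14 and CSF1R read at most 3.35, and CD68 read from 2.93 in SKNBE2 to 5.38 in NB1691, both under ciclopirox. The part of these differences in the results on origin was not tested.

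After 48 h of ciclopirox, most nucleotide synthesis genes had lower signals, with the largest mean differences in PFAS, DHODH and CTPS2, while the reductase genes differed between lines in direction. The median difference between ciclopirox and vehicle, averaged over the 4 lines, was -0.26 over the 29 genes and -0.01 over all genes tested. The mean difference was negative for 25 of the 29 genes, against 52.2% of all genes. No gene of the 29 passed in the limma fit with line as a block at an adjusted p of 0.05, and neither did any of the 14517 genes (0% called in each direction, with 2599 at an unadjusted p of 0.05). At an unadjusted p of 0.05, limma had 10 of the 29 lower, where 10.2% of all genes were, and 0 of them higher, where 7.67% were. The 10 genes were PRPS1, PRPS2, PFAS, IMPDH1, DHODH, UMPS, CTPS1, CTPS2, NME1 and SHMT1. Their adjusted p-values from limma ran from 0.146 to 0.279, so none of these differences can be called. With SKNAS and its derivative averaged, PFAS and DHODH had mean differences of -0.78 and -0.78, both with an adjusted p of 0.373 in limma.

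Signals were lower in all 4 lines for 12 of the 29 genes, against 16% of all genes tested. These were PRPS2, GART, PFAS, ADSL, ATIC, IMPDH1, DHODH, UMPS, CTPS1, CTPS2, NME1 and SHMT1. One gene, IMPDH2, was higher in all 4 lines, where 11.8% of all genes were. In NB1691 the median over the 29 genes was 0.02, against -0.21 in SKNAS, -0.20 in SKNBE2 and -0.31 in SKNAS/shHIF1a. With NB1691 left out, 19 genes were lower in each of the 3 remaining lines, and leaving out another line gave 12 or 13. A rule on 3 lines is easier to meet than one on 4, and its share over all genes is not given here. With the probe sets of a gene averaged, 10 genes were lower in all lines and 0 higher, and the members' median was -0.17. This average takes in all probe sets of a gene, also those below the level required for testing. The plot of all members shows the 5 pyrimidine genes mostly to the left of 0 and the deoxynucleotide genes on both sides of it.

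**Figure D1:**
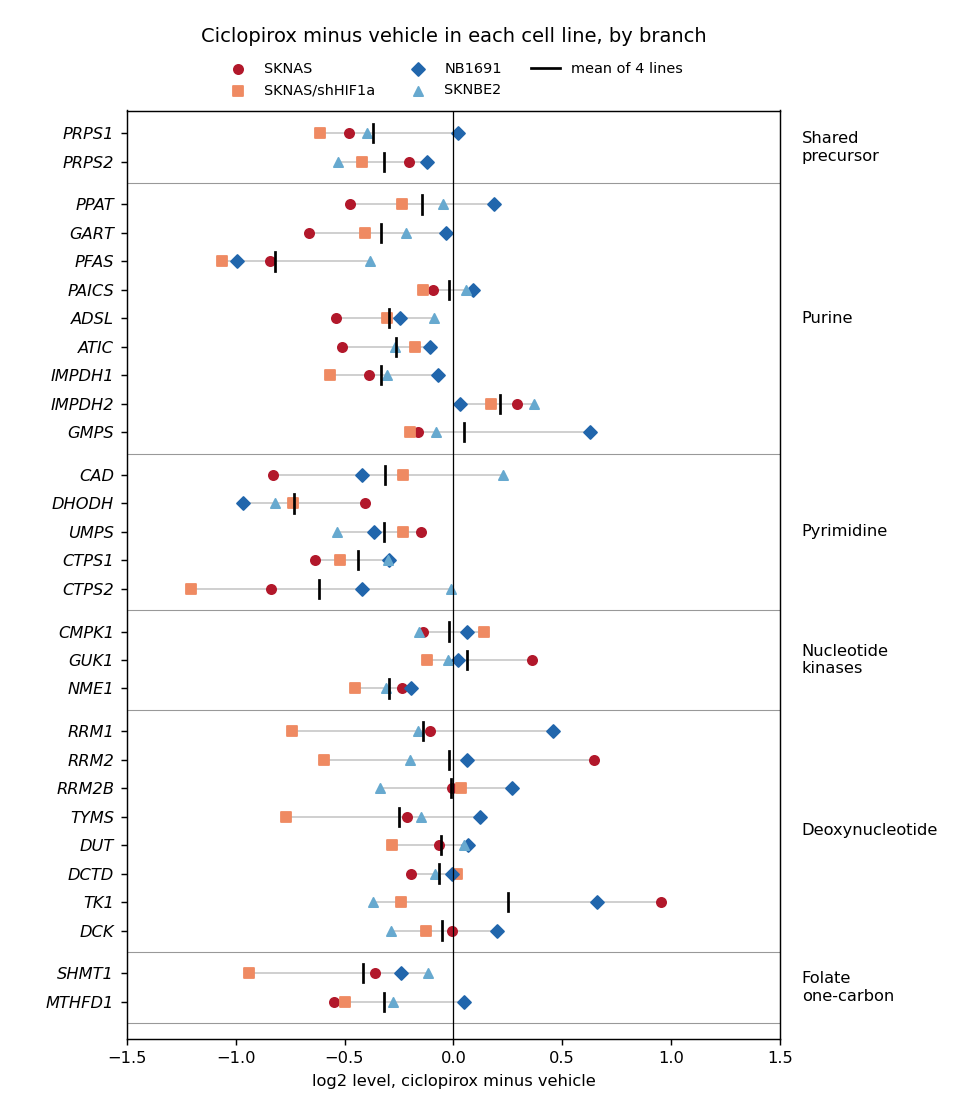
Ciclopirox minus vehicle in log2 for the 29 genes, grouped by branch, with 1 symbol per cell line and a bar at the mean of the 4 lines. PFAS and DHODH lie left of 0 in every line, IMPDH2 lies right of 0 in every line, and RRM1, RRM2 and TK1 spread across 0.

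The PRPS enzymes make phosphoribosyl pyrophosphate, the ribose donor for both branches. PRPS2 had vehicle levels of 9.77 in SKNAS, 10.96 in NB1691, 9.44 in SKNBE2 and 9.20 in SKNAS/shHIF1a, and ciclopirox levels of 9.57, 10.83, 8.91 and 8.78 in the same order. The ciclopirox array was the lower one in each line, by 0.12 to 0.53. PRPS1 was lower by 0.40 to 0.61 in 3 lines and stood at 10.35 and 10.37 in NB1691. The mean differences were -0.32 ± 0.13 (SE, 4 lines) for PRPS2 and -0.37 ± 0.15 for PRPS1, with adjusted p-values of 0.274 and 0.273 in limma.

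Among the 9 purine genes measured, 5 were lower in all lines and the median of the mean differences was -0.26. By line the purine median was -0.48 in SKNAS, -0.24 in SKNAS/shHIF1a, -0.09 in SKNBE2 and -0.04 in NB1691. PFAS, which adds the nitrogen that forms FGAM in the middle of the pathway, had the largest difference. Its vehicle levels were 9.25 in SKNAS, 10.58 in NB1691, 10.48 in SKNBE2 and 9.19 in SKNAS/shHIF1a, and its ciclopirox levels 8.41, 9.59, 10.10 and 8.12. Every line had the lower signal under ciclopirox, but the vehicle and ciclopirox arrays overlapped, and NB1691 and SKNBE2 were more than 1 log2 unit above the SKNAS-derived lines under vehicle. The mean difference was -0.82 ± 0.15 (SE, 4 lines), a 1.77-fold lower signal, with an adjusted p of 0.146 in limma.

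The remaining purine genes differed less. GART, a protein with 3 of the early activities, was lower by 0.66 in SKNAS, 0.41 in SKNAS/shHIF1a, 0.22 in SKNBE2 and 0.04 in NB1691, with a mean of -0.33, or -0.22 without SKNAS. ADSL and ATIC, which act late in the path to IMP, were lower in every line, by 0.09 to 0.54 and by 0.11 to 0.51. PPAT, the committed first step, was lower by 0.48 in SKNAS and 0.24 in its derivative, and higher by 0.19 in NB1691. PAICS stayed within 0.14 of the vehicle signal in each line on its brightest probe set, and a second one ran from -0.18 to 0.23. Other probe sets did not always have the sign of the brightest: for GART 5 of 6 did, with mean differences from -0.65 to 0.56, and for PPAT 2 of 3, with a highest value of 0.69. These highest values came from probe sets with mean levels of 4.86 for GART and 4.76 for PPAT, against 9.01 and 9.70 for the brightest.

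At the branch from IMP to guanine nucleotides, the 2 IMP dehydrogenases differed in direction. IMPDH2 had vehicle levels of 11.28 in SKNAS, 11.67 in NB1691, 11.74 in SKNBE2 and 11.26 in SKNAS/shHIF1a, and ciclopirox levels of 11.57, 11.70, 12.11 and 11.43. It was higher in each line, by 0.03 in NB1691 and by up to 0.37 in SKNBE2, with a mean of 0.22 ± 0.12 (SE, 4 lines) and an adjusted p of 0.386 in limma. Its second probe set had a mean difference of -0.13, and the average of its probe sets 0.041, so the direction depends on the probe set. That second probe set had a mean level of only 4.13, against 11.60 for the brightest. IMPDH1, with a single probe set, was lower in each line, by 0.07 to 0.57. GMPS, which makes GMP, was higher by 0.63 in NB1691 and lower by 0.08 to 0.20 in the other lines. Its second probe set was lower in each line, by 0.43 in NB1691, with a mean of -0.56.

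The promoters of PPAT and PAICS are shown because the 2 genes are divergent neighbours on chromosome 4 and part of both windows is the same DNA. RefSeq windows on GRCh38.p14 ran from 250 bases before a gene's start to 50 after it. The PPAT window overlapped by 236 bases with 1 PAICS window, and by 0 with the PAICS windows of other starts. The E-box CACGTG, which MYC and MYCN bind, was searched on both strands and is in capitals, and it begins 182 bases before the PPAT start. The 250 bases before the PPAT start lie at chr4:56435616-56435865 on the minus strand:
PPAT: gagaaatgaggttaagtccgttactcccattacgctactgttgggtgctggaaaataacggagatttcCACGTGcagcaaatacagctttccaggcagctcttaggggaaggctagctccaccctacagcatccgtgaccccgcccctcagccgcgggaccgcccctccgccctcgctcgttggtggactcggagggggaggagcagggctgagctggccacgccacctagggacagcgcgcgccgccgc
The same E-box lies 41 bases after the PAICS start of the overlapping window. The 42 windows searched came from 27 of the 30 genes, ADSS2 included, with none for ADSL, IMPDH2 and RRM2B. CACGTG was found in 7 of the 42 windows (16.7%), those of ATIC, DCK, DHODH, MTHFD1, NME1, PAICS and PPAT, and in 7.26% of all 35116 windows. Of these 7 genes, ATIC, DHODH and NME1 were lower in all 4 lines, as were 12 of the 29 genes and 16% of all genes tested. PPAT and PAICS share the same E-box, and a link between motif and response was not tested.

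The pyrimidine branch had the lowest median, -0.44 over its 5 genes, and it was negative in each line, at -0.64 in SKNAS, -0.52 in SKNAS/shHIF1a, -0.42 in NB1691 and -0.30 in SKNBE2. DHODH, the mitochondrial enzyme that oxidises dihydroorotate, had vehicle levels of 6.43 in SKNAS, 6.64 in NB1691, 6.77 in SKNBE2 and 6.49 in SKNAS/shHIF1a. Under ciclopirox its levels were 6.03, 5.67, 5.96 and 5.76, and the highest of these lay below the lowest vehicle level. The mean difference was -0.73 ± 0.14 (SE, 4 lines), a 1.66-fold lower signal, with an adjusted p of 0.149 in limma. Its second probe set had a mean difference of -0.46.

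The promoter of DHODH is shown because its window holds an E-box and its vehicle and ciclopirox arrays did not overlap. This was so for 1 of the 29 genes with ciclopirox lower, where it was for 1.47% of all genes, and for 0 with ciclopirox higher, where it was for 1.06%. The capitals mark CACGTG, which begins 159 bases before the start, and CCAAT, the motif of NFY, 22 bases before it. These 250 bases lie at chr16:72008494-72008743 on the plus strand:
DHODH: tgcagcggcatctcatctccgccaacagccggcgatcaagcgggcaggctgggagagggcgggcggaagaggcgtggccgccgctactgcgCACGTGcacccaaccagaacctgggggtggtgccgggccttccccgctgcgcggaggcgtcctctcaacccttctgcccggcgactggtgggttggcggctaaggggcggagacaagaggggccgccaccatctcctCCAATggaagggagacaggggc
CCAAT was also searched on both strands. It was in 13 of the 42 windows (31%) and in 34.6% of all windows.

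On their brightest probe sets, the CTP synthases, which convert UTP to CTP at the end of the branch, were lower in all lines. CTPS1 had vehicle levels of 9.23 in SKNAS, 9.74 in NB1691, 9.63 in SKNBE2 and 9.43 in SKNAS/shHIF1a, and ciclopirox levels of 8.59, 9.45, 9.33 and 8.91. The difference was between 0.29 and 0.64 in every line, with a mean of -0.44 ± 0.12 (SE, 4 lines) and an adjusted p of 0.188 in limma. CTPS2 had vehicle levels of 7.59, 9.17, 7.82 and 7.68 in the same order and ciclopirox levels of 6.75, 8.75, 7.81 and 6.48. Its differences were uneven: -1.21 in SKNAS/shHIF1a, -0.84 in SKNAS, -0.42 in NB1691 and -0.01 in SKNBE2. The mean was -0.62 ± 0.21 (SE, 4 lines), with an adjusted p of 0.232 in limma. A second CTPS2 probe set was higher by 0.16 in NB1691 and 0.01 in SKNBE2, with a mean of -0.31.

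UMPS, which completes UMP, was lower by 0.15 to 0.53 in the 4 lines, although 1 of its 4 probe sets had a mean difference of 0.13 and its mean of -0.32 was -0.16 with probe sets averaged. The probe set at 0.13 had a mean level of 3.49, against 9.54 for the brightest. CAD, the enzyme with the first 3 activities of the branch, had vehicle levels of 7.64 in SKNAS, 7.38 in NB1691, 8.22 in SKNBE2 and 7.29 in SKNAS/shHIF1a, and ciclopirox levels of 6.82, 6.96, 8.45 and 7.06. It was lower in 3 lines and higher by 0.23 in SKNBE2, with a mean of -0.31 ± 0.19 (SE, 4 lines) and an adjusted p of 0.42 in limma. Its mean was -0.14 without SKNAS and -0.49 without SKNBE2. On the brightest probe sets, CAD was thus the pyrimidine gene that did not have 1 direction in all lines. On its second probe set, CTPS2 did not either.

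**Figure D2:**
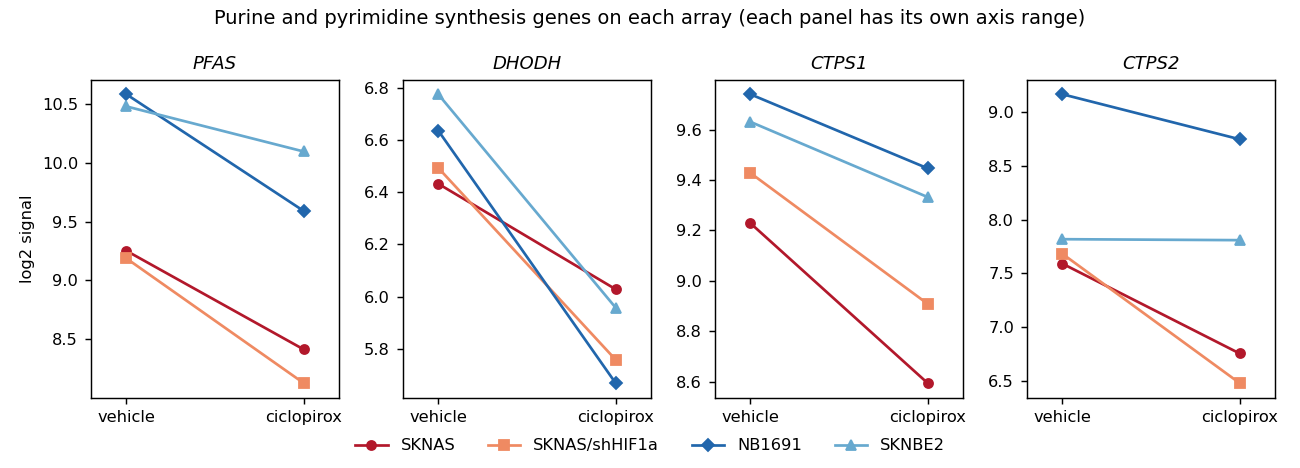
Log2 signal of PFAS, DHODH, CTPS1 and CTPS2 on each of the 8 arrays, with a line joining the vehicle and ciclopirox arrays of a cell line and an axis range of its own in each panel. All lines slope down, CTPS2 in SKNBE2 by 0.01, and the DHODH groups do not overlap.

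The 2 genes of cytosolic one-carbon metabolism, which supplies formyl groups for purines and the methyl group for thymidylate, were mostly lower. SHMT1 had vehicle levels of 7.08 in SKNAS, 8.58 in NB1691, 7.72 in SKNBE2 and 6.90 in SKNAS/shHIF1a, and ciclopirox levels of 6.72, 8.34, 7.60 and 5.97. The lower signal in each line ranged from 0.12 in SKNBE2 to 0.94 in SKNAS/shHIF1a. Its second probe set above the filter was higher in SKNAS, by 0.26, and in NB1691, by 0.03. The mean over lines, -0.41, was -0.24 without SKNAS/shHIF1a. It was -0.09 with its 4 probe sets averaged, of which 2 were above the filter. MTHFD1 was lower by 0.28 to 0.55 in 3 lines and higher by 0.05 in NB1691. Its mean of -0.32 was -0.08 with probe sets averaged, where its second probe set lay below the filter, at 3.08. Of the nucleotide kinases, NME1, a nucleoside diphosphate kinase, was lower by 0.20 to 0.45 in all lines, with a mean of -0.30 ± 0.12 (SE, 4 lines) and an adjusted p of 0.268 in limma. CMPK1 and GUK1, which phosphorylate CMP and GMP, had mean differences of -0.02 and 0.06.

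None of the 8 deoxynucleotide genes had 1 direction in all lines, where 16% of all genes were lower and 11.8% higher in all 4. None passed at an unadjusted p of 0.05 in limma, where 10.2% of all genes were lower and 7.67% higher. Their median was -0.04 in SKNAS, 0.16 in NB1691, -0.18 in SKNBE2 and -0.26 in SKNAS/shHIF1a. In NB1691, 1 of the 8 was lower, while 6 were in SKNAS, 7 in SKNBE2 and 6 in SKNAS/shHIF1a. Of all 14517 genes, 7560 were lower in NB1691, 7662 in SKNAS, 7416 in SKNBE2 and 7662 in SKNAS/shHIF1a. RRM2, the iron-holding small subunit of the reductase, had vehicle levels of 11.14 in SKNAS, 11.60 in NB1691, 11.85 in SKNBE2 and 11.20 in SKNAS/shHIF1a. Its ciclopirox levels were 11.79, 11.66, 11.64 and 10.60 in the same order. It was higher by 0.65 in SKNAS and lower by 0.59 in the derivative of that line, so the lines lay on either side of 0 and the mean was -0.02 ± 0.21 (SE, 4 lines; 95% interval -0.55 to 0.50). With a line left out, the mean was 0.17 without SKNAS/shHIF1a, 0.04 without SKNBE2, -0.05 without NB1691 and -0.24 without SKNAS. A second RRM2 probe set, with a mean level of 11.25, was higher by 0.52 in SKNAS and 0.62 in NB1691. It was lower by 0.27 in SKNBE2 and 0.41 in SKNAS/shHIF1a, with a mean of 0.12.

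RRM1, the large subunit, had vehicle levels of 10.36 in SKNAS, 10.24 in NB1691, 10.05 in SKNBE2 and 10.22 in SKNAS/shHIF1a. Under ciclopirox it read 10.25, 10.70, 9.89 and 9.48. The differences ran from -0.74 in SKNAS/shHIF1a to 0.46 in NB1691, with a mean of -0.14 ± 0.20 (SE, 4 lines). The mean was 0.06 without SKNAS/shHIF1a and -0.34 without NB1691. A second RRM1 probe set above the filter had a mean of 0.12, with 1.35 in NB1691. RRM2B, the other iron-holding subunit, had vehicle levels of 7.54, 8.58, 7.36 and 7.70 and ciclopirox levels of 7.53, 8.85, 7.03 and 7.73 in the order SKNAS, NB1691, SKNBE2 and SKNAS/shHIF1a. NB1691 was the highest line under both treatments, and the differences stayed between -0.34 and 0.27. The mean for RRM2B was -0.01 ± 0.14 (SE, 4 lines; 95% interval -0.35 to 0.33). On the brightest probe sets, no 2-fold mean change of a reductase subunit lay within its 95% interval, since the interval of RRM1 was -0.64 to 0.36. These intervals count SKNAS and its derivative as separate lines, and none is given for the second probe sets of RRM1 and RRM2.

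TK1, the thymidine kinase of dividing cells, had the widest spread of the 29 genes. Its vehicle levels were 9.09 in SKNAS, 8.91 in NB1691, 8.71 in SKNBE2 and 8.17 in SKNAS/shHIF1a, and its ciclopirox levels 10.05, 9.57, 8.35 and 7.93. It was higher by 0.95 in SKNAS and 0.66 in NB1691 and lower by 0.37 in SKNBE2 and 0.24 in SKNAS/shHIF1a, with an SD of 0.65 over the 4 differences. The mean, 0.25, was 0.017 without SKNAS, 0.11 without NB1691, 0.41 without SKNAS/shHIF1a and 0.46 without SKNBE2. TYMS, which makes thymidylate, was lower by 0.77 in SKNAS/shHIF1a and within 0.21 of vehicle in the other lines, although its 3 probe sets had mean differences from -0.43 to 0.59. The value of 0.59 came from a probe set with a mean level of 3.46, against 11.60 for the brightest. The mean of TYMS, -0.25, was -0.03 with probe sets averaged and -0.08 without SKNAS/shHIF1a. On their brightest probe sets, DUT, which removes dUTP, DCTD, which deaminates dCMP, and DCK, the deoxycytidine kinase, differed by at most 0.28 in any line. Another DUT probe set was lower by 0.98 in SKNAS/shHIF1a and 0.31 in SKNAS, and another of DCTD was lower by 0.42 in SKNBE2.

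The promoters of RRM2 and TK1 are shown because both genes were higher under ciclopirox in SKNAS and lower in its derivative. A window of each gene also repeats CCAAT, and the window with the most matches was chosen for print. The other RRM2 window holds 1 match and the other TK1 window 0. Repeats also occur in windows of GART, SHMT1 and MTHFD1, which were lower under ciclopirox in both SKNAS and its derivative. The capitals mark CCAAT or its reverse complement ATTGG. The RRM2 window holds it 3 times, beginning 123, 93 and 66 bases before the start, and the TK1 window holds it 2 times, 77 and 46 bases before the start. The sequences lie at chr2:10122489-10122738 on the plus strand and at chr17:78187053-78187302 on the minus strand:
RRM2: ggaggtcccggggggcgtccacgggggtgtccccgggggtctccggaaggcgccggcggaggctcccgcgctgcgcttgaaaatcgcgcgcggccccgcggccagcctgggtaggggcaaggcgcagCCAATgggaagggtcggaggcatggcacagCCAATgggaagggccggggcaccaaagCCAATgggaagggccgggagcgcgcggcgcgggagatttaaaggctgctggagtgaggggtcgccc
TK1: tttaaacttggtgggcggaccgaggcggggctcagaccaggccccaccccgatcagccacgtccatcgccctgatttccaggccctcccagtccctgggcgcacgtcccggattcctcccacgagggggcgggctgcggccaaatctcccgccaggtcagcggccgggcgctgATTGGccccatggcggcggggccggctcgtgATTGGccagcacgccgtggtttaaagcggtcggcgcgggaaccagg
Neither printed window held CACGTG. The E2F motifs TTTCGCGC and TTTGGCGC, searched on both strands, were in 3 of the 42 windows (7.14%), 1 each of DCK, DUT and GART, and in 1.15% of all windows. These matches describe letters only.

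**Figure D3:**
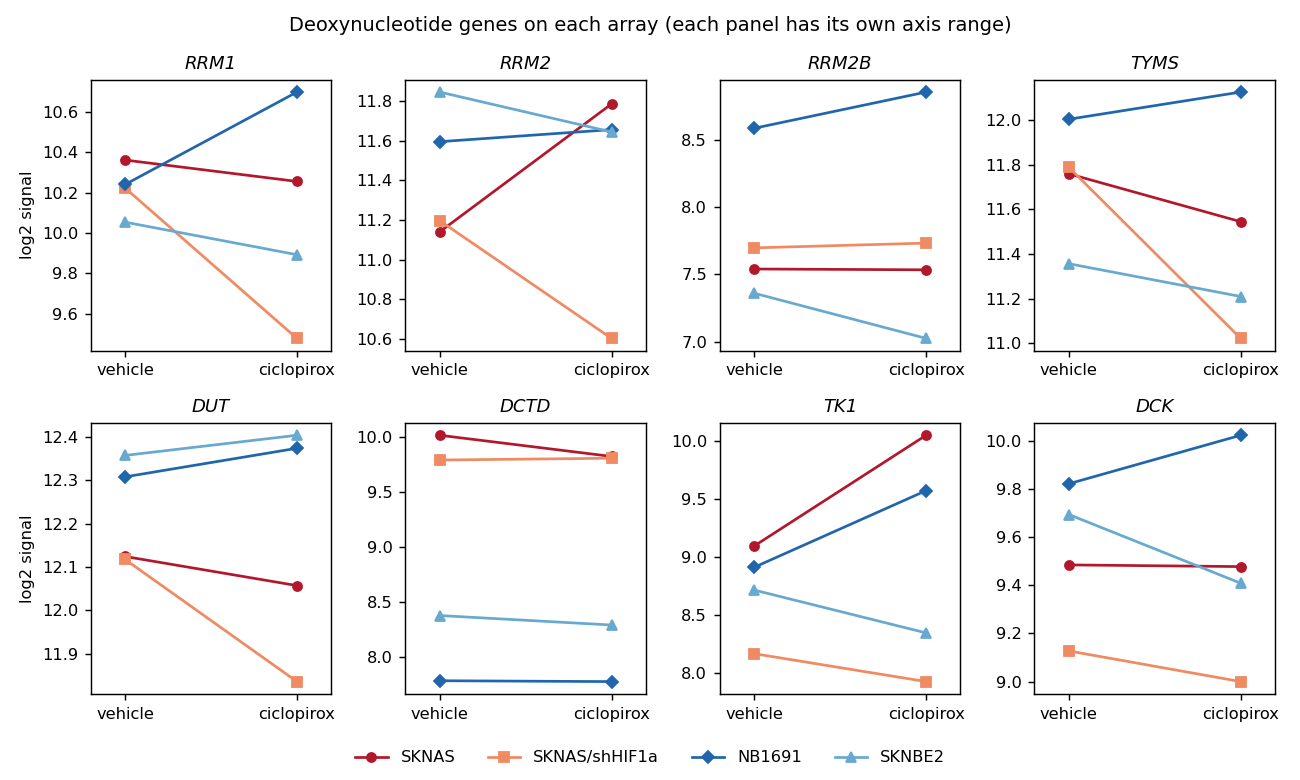
Log2 signal of the 8 deoxynucleotide genes on each of the 8 arrays, with a line joining the vehicle and ciclopirox arrays of a cell line and an axis range of its own in each panel. RRM2 and TK1 slope up in SKNAS and down in SKNAS/shHIF1a, and NB1691 is the highest line for RRM2B on both arrays.

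Genes of DNA replication and mitosis also differed between lines in direction. The 22 S phase genes had median differences of -0.34 in SKNAS, 0.28 in NB1691, -0.34 in SKNBE2 and -0.80 in SKNAS/shHIF1a, and 19, 5, 20 and 22 of them were lower. The 20 mitotic genes had medians of 0.18, 0.09, -0.72 and -0.79 in the same order. The order of the deoxynucleotide medians was that of the S phase medians at both ends, with NB1691 highest and SKNAS/shHIF1a lowest. The pyrimidine median was -0.42 in NB1691, where the S phase median was positive. The part of the share of dividing cells in these results was not tested, and fewer cells of a kind and less RNA per cell cannot be told apart in bulk samples.

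**Figure D4:**
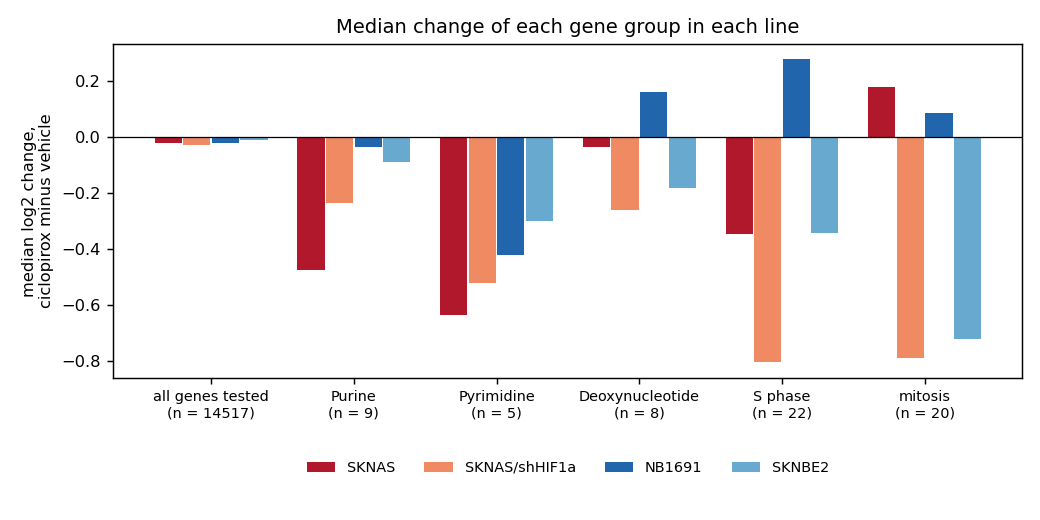
Median log2 difference between ciclopirox and vehicle in each cell line for all genes tested, the purine, pyrimidine and deoxynucleotide genes, and the S phase and mitosis lists, with the number of genes under each group. The pyrimidine bars lie between -0.64 and -0.30 in every line, while the deoxynucleotide and S phase bars are positive in NB1691.

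Within a line, 2 arrays carry no test, and sizes are given as counts over the brightest probe sets. A signal lower by at least 0.5 was found for 8 of the 29 genes in SKNAS, where 10.8% of all genes were, and for 10 in SKNAS/shHIF1a, where 15.7% were. In SKNBE2 it was found for 3 genes, against 8.95%, and in NB1691 for 2, against 17%. A signal higher by at least 0.5 was found for RRM2 and TK1 in SKNAS (10.6% of all genes), for GMPS and TK1 in NB1691 (12.9%), and for 0 of the 29 in SKNBE2 (10.3%) and SKNAS/shHIF1a (13.6%). A difference of at least 2-fold was found for PFAS and CTPS2 in SKNAS/shHIF1a, both lower, where 4.31% of all genes were. In the other lines no member was 2-fold lower, against 1.62% of genes in SKNAS, 5.12% in NB1691 and 1.25% in SKNBE2. No member was 2-fold higher in any line, against 3.38% of genes in SKNAS, 3.31% in NB1691, 2.11% in SKNBE2 and 5.52% in SKNAS/shHIF1a.

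Responses in the knockdown line and its parent were furthest apart, by branch median, in the deoxynucleotide genes. The difference between ciclopirox and vehicle was lower in SKNAS/shHIF1a than in SKNAS for 19 of the 29 genes, against 49.6% of all genes, and lower by at least 0.5 for 5, against 12%. These 5 were RRM2 by 1.24, TK1 by 1.19, RRM1 by 0.64, SHMT1 by 0.58 and TYMS by 0.55. CAD was the 1 gene above its parent's difference by at least 0.5, at 0.60, where 10.4% of all genes were. The median of this quantity was -0.38 over the 8 deoxynucleotide genes, -0.03 over the purine and -0.09 over the pyrimidine genes, beside -0.45 over the S phase and -1.01 over the mitosis list. Each value rests on 1 array per line and treatment, and the difference was not tested.

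Neighbouring pathways, given here as lists beside the 29 genes, had medians from -0.36 to 0.09. The 19 salvage and interconversion genes had a median of -0.01, with 1 higher and 5 lower at an unadjusted p of 0.05 in limma and 0 past the adjusted threshold. Over all genes tested, 7.67% were higher and 10.2% lower at that unadjusted p. AK4, a mitochondrial adenylate kinase, had differences of 3.68 in SKNAS, 0.18 in NB1691, 2.28 in SKNBE2 and 3.53 in SKNAS/shHIF1a, with an adjusted p of 0.166 in limma. AMPD3, an AMP deaminase, was higher by 4.09 in SKNAS/shHIF1a and by 1.86 in SKNAS, and lower by 0.27 in NB1691. NME4, a mitochondrial nucleoside diphosphate kinase, was lower in each line, by 0.27 to 0.93. The 11 genes of deoxynucleotide breakdown and pool control had a median of -0.36, with 2 lower at an unadjusted p of 0.05. DPYD, which degrades pyrimidine bases, NT5C, a nucleotidase, and DCTPP1, a dCTP pyrophosphatase, had the largest mean differences there, -0.65, -0.49 and -0.42.

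The 7 electron donors of the reductase, thioredoxins, glutaredoxins and their reductases, had a median of -0.08, and 0 passed at an unadjusted p of 0.05. The largest mean differences among them were those of GSR, TXNRD1 and GLRX2, at -0.14, 0.12 and -0.11. The 10 mitochondrial and other folate genes had a median of 0.09, with 1 lower at an unadjusted p of 0.05, MTHFD2L. That gene, a mitochondrial methylenetetrahydrofolate dehydrogenase, had a mean difference of -0.91 and was lower in each line, by 0.48 to 1.66. SHMT2, the mitochondrial counterpart of SHMT1, was higher by 1.18 in NB1691 and 0.89 in SKNBE2, with a mean of 0.51.

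Levels also differed between lines. Between NB1691 with SKNBE2 and SKNAS with its derivative, compared over line means, limma called 534 genes, 1.27% of all genes higher and 2.4% lower in the former, and none of the 29. At an unadjusted p of 0.05, 4 of the 29 were higher in NB1691 and SKNBE2 (11% of all genes) and 1 was lower (12.1%). PFAS had the largest positive value, with line means of 10.09 in NB1691, 10.29 in SKNBE2, 8.83 in SKNAS and 8.66 in SKNAS/shHIF1a. The difference was 1.44 ± 0.20 (SE, 4 line means), with an adjusted p of 0.0599 in limma, and it passed when limma used an intensity trend. SKNAS and its derivative counted as separate line means here, although the derivative was made from SKNAS, so the SE may be too small. SHMT1, PRPS1 and PPAT were the other 3, higher by 1.39, 0.91 and 0.73, and SHMT1 by 0.62 with probe sets averaged.

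DCTD, the dCMP deaminase, went the other way. Its vehicle levels were 10.02 in SKNAS, 9.79 in SKNAS/shHIF1a, 8.38 in SKNBE2 and 7.79 in NB1691, and its ciclopirox levels 9.82, 9.81, 8.29 and 7.78. The SKNAS-derived arrays did not overlap with the others, and the difference was -1.80 ± 0.27 (SE, 4 line means), with an adjusted p of 0.0663 in limma. All 4 arrays of NB1691 and SKNBE2 were above all 4 of the other lines for 9 of the 29 genes, where 15.7% of all genes were. For 3 genes, CMPK1, GUK1 and DCTD, they were below, where 15.5% of all genes were. The median difference over the 29 genes was 0.33, beside 0.04 over all genes. Leaving out SKNAS or its derivative left 0 genes called, and leaving out NB1691 or SKNBE2 gave 1357 and 2352.

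**Figure D5:**
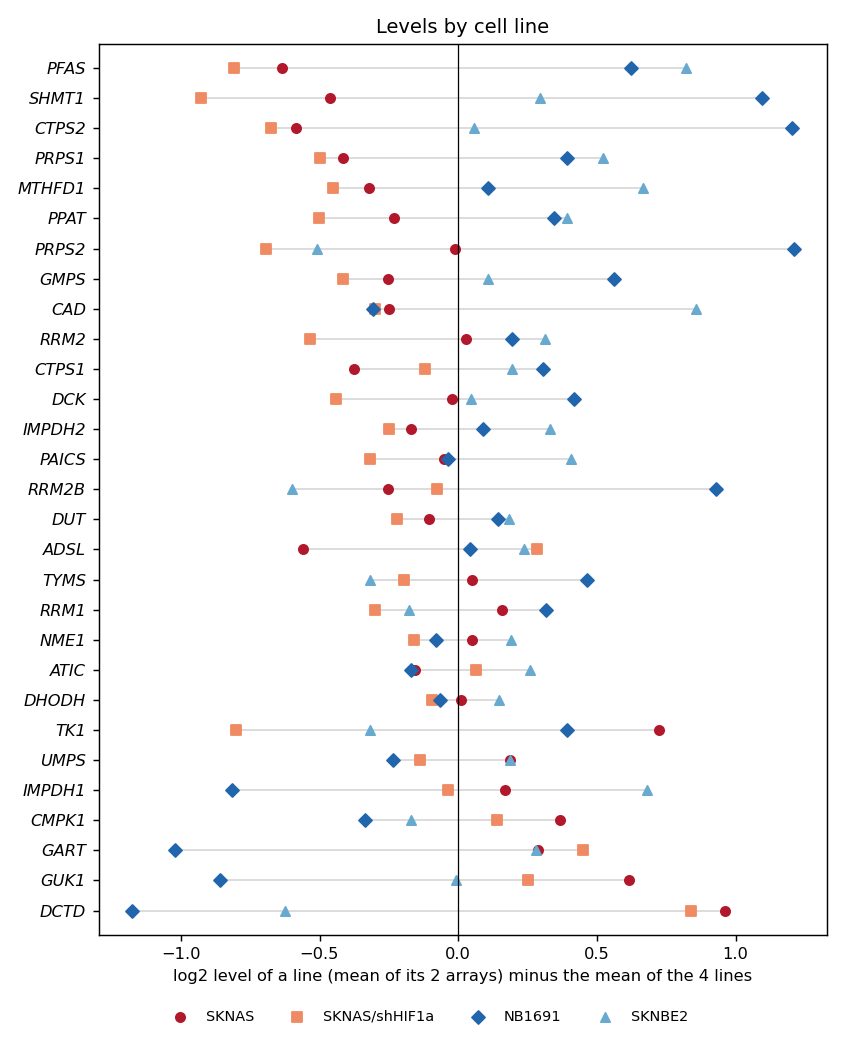
Log2 level of each line, as the mean of its vehicle and ciclopirox arrays, minus the mean of the 4 lines, for the 29 genes in order of the difference by origin. PFAS and SHMT1 stand at the top with NB1691 and SKNBE2 to the right, and DCTD at the bottom with both SKNAS-derived lines to the right.

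NB1691 and SKNBE2 differed in 7 of the 29 genes in limma, over all arrays with treatment in the fit. NB1691 was higher in 3, where 12.9% of all genes were called, and lower in 4, where 12.2% were. PRPS2 was higher in NB1691 by 1.72 ± 0.18 (SE, 2 arrays per line), with an adjusted p of 0.0019. RRM2B was higher by 1.53 ± 0.20, with an adjusted p of 0.00389, and CTPS2 by 1.15 ± 0.30, with an adjusted p of 0.0394, both in limma. For RRM2B the levels of NB1691, 8.58 and 8.85, lay above the 7.36 and 7.03 of SKNBE2 and above both other lines.

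IMPDH1 was lower in NB1691 by 1.49 ± 0.18, with levels of 5.09 and 5.02 against 6.70 and 6.39, and an adjusted p of 0.00332 in limma. GART was lower by 1.30 ± 0.20, with levels of 8.01 and 7.97 against 9.40 and 9.18, and an adjusted p of 0.00774. CAD was lower by 1.17 ± 0.27 and GUK1 by 0.85 ± 0.19, with adjusted p-values of 0.026 and 0.0224 in limma. With probe sets averaged, CAD, CTPS2 and GUK1 no longer passed in limma, with differences of -0.60, 0.89 and -0.47. Their adjusted p-values in limma were 0.0551, 0.0614 and 0.0854, and GART passed with -0.77. This average takes in probe sets below the level filter, as were the second ones of CAD and GUK1, at 2.95 and 2.88. GART and IMPDH1 were thus lowest in NB1691 of the 4 lines, under both treatments.

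Between SKNAS/shHIF1a and SKNAS limma called 230 genes, 0.744% of all genes higher and 0.84% lower, and none of the 29. Levels were lower in the knockdown line under both treatments for 19 of the 29, against 32.8% of all genes. At an unadjusted p of 0.05, TK1 and PRPS2 were lower (6.08% of all genes) and ADSL was higher (5.98%). TK1 differed by -1.52 ± 0.36 (SE, 2 arrays per line), with -0.93 under vehicle and -2.12 under ciclopirox, and an adjusted p of 0.144 in limma. ADSL differed by 0.84 ± 0.18, with 0.73 and 0.96 under the 2 treatments and an adjusted p of 0.105 in limma, and it passed with an intensity trend. RRM2, by contrast, stood at 11.14 and 11.20 under vehicle and separated only under ciclopirox, where it was 1.18 lower in the knockdown line.

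The response to ciclopirox was also compared between line origins. In limma 5 genes were called, 0% of all genes with a higher and 0.0344% with a lower difference in NB1691 and SKNBE2, and none was among the 29. CTPS2 alone passed at an unadjusted p of 0.05, where 4.97% of all genes did in its direction and 6.35% in the other, which held 0 members. Its signal was less reduced in NB1691 and SKNBE2, by 0.81 ± 0.28 (SE, 4 differences), with an adjusted p of 0.399 in limma. RRM2 and TK1 had values of -0.10 ± 0.45 and -0.21 ± 0.53. For both genes the 2 lines of each origin differed in direction.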

How the data were processed

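Biotin-labelled cRNA from 8 total RNA samples was hybridised to 1 array per line and treatment, per the labels. Signals were deposited by the authors on the log2 scale. The submitters' processing notes name RMA, a method that corrects background, normalizes quantiles and summarises probes, without a version. RMA shrinks small differences near background, and no scaling was added.

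Of 54715 probe sets, 102 were controls, 40914 carried 1 symbol, 864 several and 12835 none here. Symbols came from the platform annotation, updated through gene IDs. Genes whose brightest probe set had a mean of at least the 40th percentile of probe sets (log2 3.208) were tested. The fits used limma 3.58.1 in R 4.3.3, two-sided, with Benjamini-Hochberg adjustment over all 14517 genes and a threshold of 0.05, and were tested on simulated data. The ciclopirox fit had the cell line as a block (3 residual degrees of freedom). The pairing comes from the shared cell line, and after each gene's mean over the 4 arrays of a treatment was subtracted from them, the 2 arrays of a line correlated across genes at 0.817 to 0.898. Comparisons by origin used 4 line means or 4 differences (2 residual degrees of freedom), and the other level contrasts used all 8 arrays with treatment as a term. An exact sign-flip test was not used, since 4 lines allow no p under 0.125. The number of arrays limits the precision.

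All 30 members are named, and of each neighbouring list the 3 genes with the largest mean difference in size. Members and lists were chosen with earlier results of these data known. Promoter windows came from RefSeq (GRCh38.p14), with 27 members matched. Alternatives were the block, each line left out, SKNAS averaged with its derivative, the filter, the probe set rule, centring, quantile normalization, an intensity trend, array weights, the threshold, vehicle or ciclopirox arrays alone, and the compared lines alone.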

Additional observations from a re-analysis of the deposited data

Results flagged for a closer look

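Among 87 groups of 4 values (vehicle levels, ciclopirox levels and differences of the 29 genes), 5 held a value far from the other 3, where chance flags about 1 in 20. GART under vehicle was 8.01 in NB1691, with the next value at 9.40. CTPS2 under vehicle was 9.17 in NB1691, with the next at 7.82. The ciclopirox minus vehicle difference of GMPS was 0.63 in NB1691, with the next at -0.08, while its second probe set had -0.43 in NB1691. CAD under ciclopirox was 8.45 in SKNBE2, with the next at 7.06. RRM2 under ciclopirox was 10.60 in SKNAS/shHIF1a, with the next at 11.64.

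PAICS, an enzyme of purine synthesis, and DUT, the dUTP pyrophosphatase, were each higher under ciclopirox in NB1691 and SKNBE2 and lower in SKNAS and SKNAS/shHIF1a. The differences between origins were 0.19 for PAICS and 0.23 for DUT, and neither passed in limma. These directions are those of the brightest probe sets. Another DUT probe set was lower by 0.14 in both NB1691 and SKNBE2, and another of PAICS was lower by 0.18 in SKNBE2.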

How the results depend on the processing

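With 1 array per line and treatment, the fits have 2 or 3 residual degrees of freedom. Under all alternatives run for ciclopirox minus vehicle, 0 genes and 0 members were called, also with no replicate block (0), and the unblocked fit changed no call. IMPDH2 was no longer higher in all lines with probe sets averaged (0 genes higher in all lines). The count lower in all lines was 10 with probe sets averaged and 11 with quantile normalization. It was 12 to 19 with a line left out, where only 3 lines had to be lower. The member median of -0.26 became -0.17 with probe sets averaged, an average that takes in probe sets below the filter. Mean differences near 0 changed sign in some alternatives, and the cause was not tested. With probe sets averaged PPAT was 0.15, GMPS -0.26 and RRM2 0.047. With quantile normalization PAICS was 0.013 and RRM2 0.027, with SKNAS and its derivative averaged PAICS was 0.0096, and with array weights GMPS was -0.063 and RRM2 0.080. With a line left out, PAICS ran from -0.058 to 0.018, GMPS from -0.15 to 0.13, CMPK1 from -0.077 to 0.023, GUK1 from -0.040 to 0.12, RRM1 from -0.34 to 0.063, RRM2 from -0.24 to 0.17, RRM2B from -0.10 to 0.099, DUT from -0.10 to 0.015 and DCK from -0.14 to 0.022. By origin, 534 genes became 1369 at a threshold of 0.1, 243 with vehicle arrays alone and 0 to 2352 with a line left out. Of the members, 1 was called higher with an intensity trend, 1 higher and 1 lower at 0.1, and 0 to 2 each way with a line left out. For the knockdown line, 230 genes became 433 at 0.1 and 393 with its 4 arrays alone, and an intensity trend called 1 member, ADSL, higher. Between NB1691 and SKNBE2, 5 members were higher and 5 lower at 0.1, and 3 of the 7 calls (CAD, CTPS2 and GUK1) were lost with probe sets averaged. At 0.05, 12.9% of all genes were called higher in NB1691 and 12.2% lower. The shares of all genes called in each direction under the alternatives of these level comparisons are not given here. For the response by origin, 5 genes became 9 with probe sets averaged, 13 at 0.1, 0 with an intensity trend and 0 with any line left out.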
